A study of Mus musculus with 2 samples.

Results

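The axon guidance ligands and receptors described here are 68 of the 33696 features measured in stromal cells of the mouse colon. They were taken by gene symbol, with no cut on measured values, but with earlier results of these data known. They were 20 semaphorins, 9 plexins, 2 neuropilins, 8 ephrins, 14 Eph receptors, 4 netrins, 4 Unc5 receptors, 3 Slits and 4 Robos. The control library came from Il10ra ff mice, whose alleles of the IL-10 receptor alpha chain are floxed, and the Cre library from Il10ra ff mice that also carried Pdgfra-cre, which is active in cells that have expressed the PDGF receptor alpha gene. Both genotypes were 6 months old with 2 mice each, and there was 1 library per genotype, made with a 10x Genomics 5' kit that reads the start of transcripts; the labels do not say how the mice were divided over a library. The colon cells had been sorted as living, Podoplanin-positive cells without CD45, CD31 or EpCAM. The design therefore allows no test of genotype: each difference between libraries given below compares 2 libraries and has no replicate check.

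Guidance molecules were first described as cues that attract or repel growing axons, and the same families act on the migration and adhesion of many other cells. Secreted Slits bind Robo receptors, secreted netrins bind Dcc, neogenin and the Unc5 receptors, class 3 semaphorins bind neuropilins that signal through plexins, and ephrins on one cell bind Eph receptors on the next. In the gut wall they are known for roles in placing enteric nerves, glia and vessels.

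The study's title concerns the IL-10 receptor axis of fibroblasts and type I interferon. Of 11380 and 8627 barcodes, 10657 control and 8302 Cre cells passed the filters, and 115 barcodes occurred in both libraries. The targeted Il10ra had 1 UMI (a unique molecule) in fibroblasts of the control and 5 in those of the Cre library, too few to check the deletion. Fibroblasts numbered 9350 and 7430, with medians of 6759 and 7775 UMIs. Cells were placed in 10 classes by marker genes that hold no guidance gene. Of the fibroblasts, 1197 control and 448 Cre cells were subepithelial (marked by Sox6 and Bmp3), 1252 and 1087 lamina propria (Adamdec1, Edil3), 1226 and 880 adventitial (Pi16, Dpp4), 300 and 1226 trophocyte or submucosal (Grem1, Ackr4) and 152 and 228 interstitial (Kcnn3). The other 5223 and 3561 fibroblasts met the gate of no class, and 10 and 5 cells met more than 1. A class cut from a marker score is a range and not a type: 2186 control and 1785 Cre fibroblasts lay near a cut. Outside the fibroblasts, smooth muscle held 591 and 153 cells, glia 66 and 112, interstitial cells of Cajal 42 and 48, mesothelium 62 and 46 and lymphatic endothelium 44 and 43, the last with medians of 1957 and 2315 UMIs. All markers of each of these classes were detected in its cells in both libraries, except 1 of 7 markers of Cajal cells in the Cre library. Levels below are UMIs of the gene scaled to a class total of 1000000 UMIs (CPM), control first and Cre second, with exact 95% intervals that cover counting error only.

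Guidance genes were used very unevenly by the fibroblast classes, and in much the same way in both libraries. Of the 68 members, 33 reached a mean of 10 CPM over the 5 fibroblast classes. A gene can reach it through the class where it is high. The same filter was used for all genes, but members and all genes were not matched for level. The part of the filter in the contrasts below was not tested. Between the highest and the lowest class the median member differed 8.24-fold in the control and 7.86-fold in the Cre library, beside 1.73-fold and 1.72-fold for the 9136 genes measured by the same rule. A difference of at least 3-fold was seen for 26 of the 33 members in each library, beside 17.4% and 17.6% of those genes. The class with the highest level was the same in both libraries for 28 of 33, beside 62.6% of all genes. Some of the members below that mean were near 0: Robo4 had 0 UMIs in fibroblasts of both libraries, and Robo3, Slit1, Epha8, Epha10, Sema3g, Ntn5 and Plxnb3 stayed under 0.1 CPM there. Others were not, such as Epha5 (14.1 and 51.9 CPM) and Unc5a (13.2 and 20.5 CPM) in the lamina propria class.

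Over all 10 classes, 35 members reached 20 CPM with at least 20 UMIs in their leading class in both libraries. The leading class was the same in both for 28 of them (80%, beside 66.6% of 5203 genes), and it stood at least 2-fold above the next class in both for 14 (40%, beside 16.4%). This filter too passes a gene by its highest class, and levels were not matched to those of all genes. Those 14 belonged to glia (Ephb2, Sema3b, Sema3e and Sema7a), lymphatic endothelium (Ntn1, Plxna2, Sema3d and Sema6a), Cajal cells (Epha4, Epha6 and Epha7), Kcnn3 interstitial cells (Epha3 and Slit2) and smooth muscle (Unc5c). None of the 14 led in the subepithelial, lamina propria, Pi16 or trophocyte class or in mesothelium, although Efnb2, Robo1, Ntn4, Slit3 and 4 members in mesothelium led there by less.

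**Figure D1:**
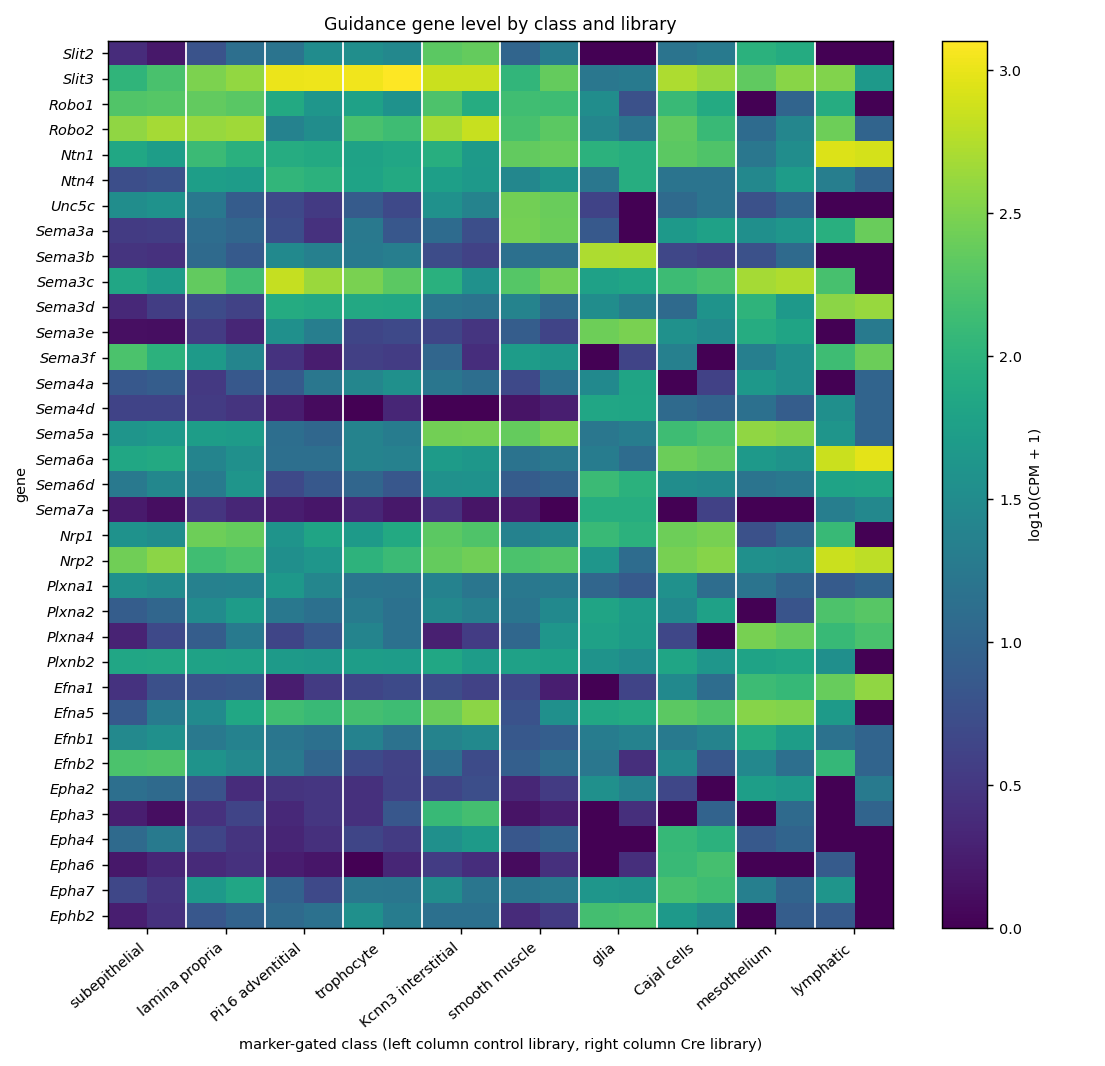
Level of each of the 35 members tested over 10 classes, as log10 of CPM + 1, with the control library in the left and the Cre library in the right column of each class. Paired columns are alike for most genes, while neighbouring classes differ: Slit3 is bright in the Pi16 and trophocyte columns, Sema3b in glia and Epha6 in Cajal cells.

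Slit3 was highest in the fibroblast classes where Robo2 was lowest. Slit3, a secreted Robo ligand, was highest in trophocyte fibroblasts (1077 and 1266 CPM) and in the Pi16 class (1021 and 1054 CPM), followed by the Kcnn3 class (716 and 723 CPM) and the lamina propria class (310.1 and 398 CPM), and lowest in the subepithelial class (106 and 160.1 CPM). The trophocyte and subepithelial levels differed 10.1-fold (9.37 to 10.99) in the control and 7.90-fold (7.25 to 8.63) in the Cre library. With every cell thinned to 2000 UMIs, 76.7% of control and 78.4% of Cre cells of the Pi16 class had a Slit3 UMI, against 3.33% and 0% of glia, the class with the lowest Slit3 level; before thinning the shares were 95.3% and 97.7% against 6.06% and 8.04%. Robo2, a Slit receptor, was highest in the Kcnn3 class (492 and 689 CPM) and high in the lamina propria (414 and 451 CPM) and subepithelial classes (383 and 478 CPM), but at 22.97 and 32.3 CPM in the Pi16 class. Trophocytes had 159.9 and 136 CPM, and Kcnn3 cells had both genes at high levels. The span of Robo2 from highest to lowest class was 21.4-fold (18.3 to 25.2) and 21.3-fold (18.8 to 24.3).

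Robo1 and Slit2 had patterns of their own. Robo1, a second Slit receptor, was highest in the lamina propria class (226 and 205 CPM) and next in the subepithelial class (179.6 and 194 CPM), and lowest in trophocytes (58.7 and 36.9 CPM). In the Cre library the intervals of the upper pair overlapped, 196 to 214 and 179.6 to 209.5 CPM, so their order there is not resolved. Slit2 was concentrated in Kcnn3 cells, at 209 and 235 CPM, with 95.2 and 81.1 CPM in mesothelium as the next class and 13 and 2 UMIs in all subepithelial cells. In glia and in lymphatic endothelium Slit2 had 0 UMIs in both libraries, which allows at most 9.67 and 4.92 CPM in glia and 20.5 and 27.1 CPM in lymphatic endothelium. Robo4, a Robo of endothelial cells, was seen in lymphatic endothelium alone, with 4 and 7 UMIs.

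**Figure D2:**
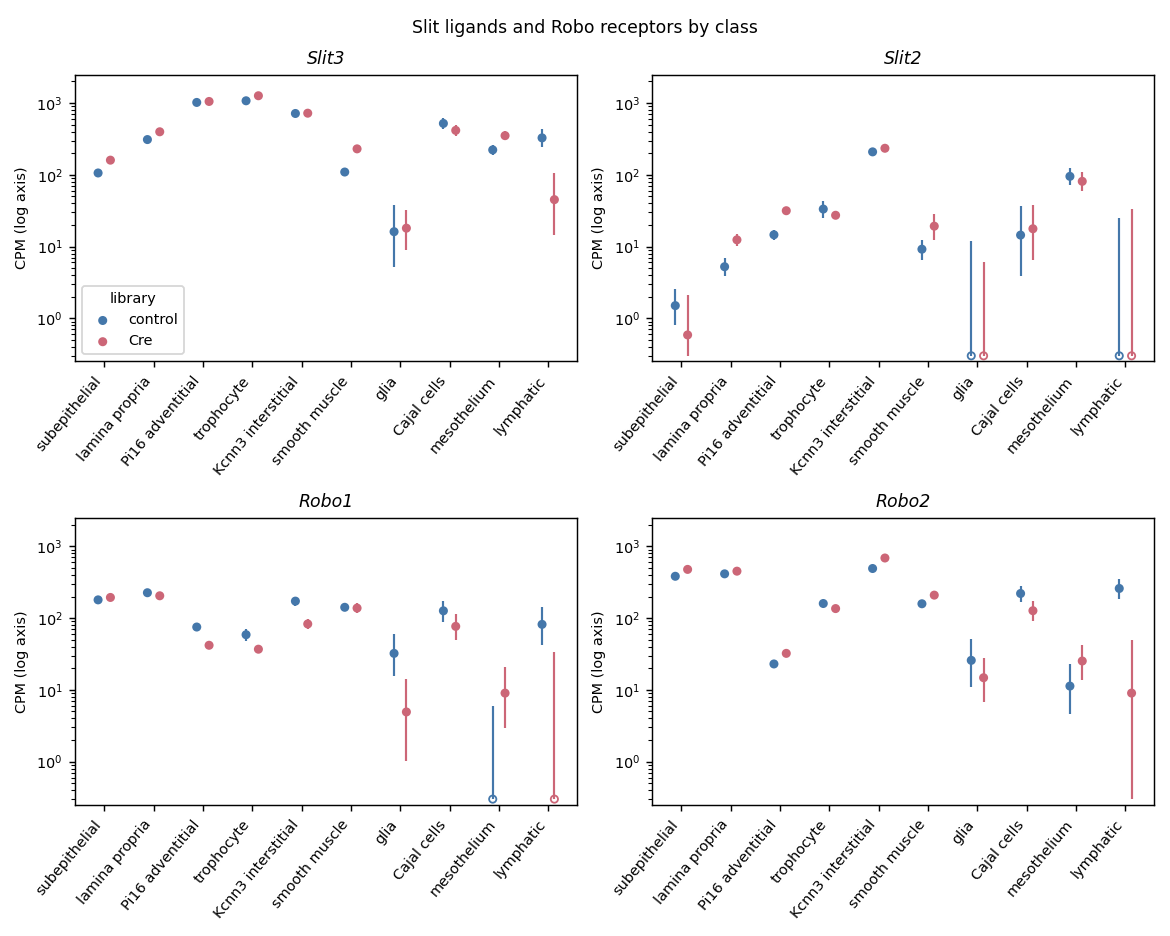
Slit3, Slit2, Robo1 and Robo2 in each class on a log axis of CPM. Points are libraries, vertical lines exact 95% Poisson intervals of the summed UMIs and open circles at the foot a count of 0. Slit3 is lowest in the subepithelial and highest in the trophocyte class of the fibroblasts, where Robo1 is lowest, and Robo2 is lowest in the Pi16 class.

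Of the netrins, Ntn1 and Ntn4 were measured in fibroblasts and their highest classes differed. Ntn1, the founding secreted netrin, was spread over all fibroblast classes, from 129 and 92.99 CPM in the lamina propria class down to 59.9 CPM in control trophocytes and 48.6 CPM in Kcnn3 cells of the Cre library. Lymphatic endothelium had 873 and 794 CPM and smooth muscle 225 and 243 CPM. Ntn4, a netrin of basement membranes, was highest in the Pi16 class (108 and 97.1 CPM) and at 4.62 and 4.99 CPM in the subepithelial class. Among netrin receptors, Unc5c marked smooth muscle, with 273 and 244 CPM, 7.50-fold and 6.67-fold above the next class. Unc5b, a netrin receptor of vessels, led in lymphatic endothelium with only 22 and 12 UMIs (150 and 108 CPM). In the control library Unc5b was at 39.95 CPM in the lamina propria class and 3.97 CPM in the Pi16 class.

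The secreted class 3 semaphorins divided the tissue among them. Sema3c was highest of the fibroblasts in the Pi16 class (667 and 431 CPM), and mesothelium had 486 and 536 CPM. Sema3d was also highest of the fibroblasts in the Pi16 class (81.04 and 73.6 CPM), next to trophocytes (73.4 and 71.8 CPM), while lymphatic endothelium had 368 and 415 CPM. Sema3f took the reverse place, with 167 and 96.5 CPM in subepithelial fibroblasts and 1.82 and 0.779 CPM in the Pi16 class. Sema3a, the prototype repellent, was highest in smooth muscle (283 and 252 CPM), which in the Cre library lymphatic endothelium matched with 243 CPM. Sema3b and Sema3e belonged to glia: Sema3b was at 519 and 545 CPM there, against 28.8 and 21.6 CPM in the next, the Pi16 class, and Sema3e, a ligand of plexin D1, was at 264 and 304 CPM with 82.3 and 63.1 CPM in mesothelium. Sema3g was all but absent, at 0.0609 and 0.0654 CPM in fibroblasts.

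Among membrane-bound semaphorins, Sema5a was shared by mesothelium (381 and 344 CPM), Kcnn3 cells (276 and 286 CPM) and smooth muscle (231 and 310.4 CPM), and was at 12.1 and 9.79 CPM in the Pi16 class. Sema6a, which binds plexins of the A class, was at 709 and 947 CPM in lymphatic endothelium and, of the fibroblasts, highest in the subepithelial class (68.9 and 75.7 CPM). Glia had 83.8 and 83.7 CPM of Sema7a, a lipid-anchored semaphorin, while fibroblasts had 1.19 and 0.605 CPM. Sema4a led in different classes in the libraries, mesothelium in the control and glia in the Cre library, and was highest of the fibroblasts in trophocytes (25.4 and 34.6 CPM). Sema4c, by contrast, stayed between 26.5 and 42.5 CPM over the fibroblast classes of both libraries.

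The neuropilins, co-receptors for class 3 semaphorins and for vascular growth factors, peaked in different fibroblast classes and overlapped in others. Nrp1 was highest in the lamina propria class (263 and 232 CPM) and lowest in the subepithelial class (37.6 and 32.6 CPM). Nrp2 was highest in the subepithelial class (272 and 365 CPM) and lowest in the Pi16 class (34.5 and 41.7 CPM), and over all classes highest in lymphatic endothelium (716 and 622 CPM). The lamina propria class had 139 and 165 CPM of Nrp2, and in its cluster led by Adamdec1 and Tnc both were high, with 233 and 227 CPM of Nrp1 and 319.5 and 299 CPM of Nrp2. Kcnn3 cells had both too, at 205 and 175 CPM of Nrp1 and 233 and 271 CPM of Nrp2. Of the plexins, Plxnb2 was the one spread most evenly, from 44.1 to 71.3 CPM over the fibroblast classes. Plxnd1, the receptor for Sema3e, was at 32.97 and 41.2 CPM in the lamina propria and 2.47 and 3.12 CPM in the Pi16 class. Plxna4 was highest in mesothelium (295 and 238 CPM), Plxna2 in lymphatic endothelium (170.5 and 198 CPM), and Plxnb3 had 18 and 30 UMIs in glia (58.03 and 49.2 CPM) against 0.0305 and 0.0654 CPM in fibroblasts.

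The most abundant ephrins of fibroblasts, Efna5 and Efnb2, differed in the class that held most of them. Efna5, an ephrin held to the membrane by a lipid, was highest in Kcnn3 cells (245 and 368 CPM), was at 148 and 137 CPM in trophocytes and 140.1 and 126 CPM in the Pi16 class, and was at 6.24 and 17.6 CPM in the subepithelial class. Efnb2, a transmembrane ephrin known from arteries, was highest in the subepithelial class (167 and 174 CPM) and at 3.95 and 3.13 CPM in trophocytes. Efna1 stood outside the fibroblasts, in lymphatic endothelium (239 and 388 CPM) and mesothelium (132 and 117 CPM).

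Several Eph receptors, the tyrosine kinases that bind ephrins, had 1 class well above the others. Epha3 was at 122 and 147 CPM in Kcnn3 cells, and at 1.75 and 3.27 CPM in the lamina propria and 0.809 and 0.293 CPM in the subepithelial class. Cajal cells, the pacemaker cells of the gut, led for 3 receptors: Epha6 at 126 and 154 CPM against 0.853 and 0.883 CPM in fibroblasts, Epha4 at 119 and 97.4 CPM against 34.7 and 47.6 CPM in Kcnn3 cells, and Epha7 at 155 and 136 CPM against 46.3 and 67.5 CPM in the lamina propria class. These rest on 42 and 48 cells, with 35 and 52 UMIs of Epha6. Ephb2 was highest in glia (148 and 161 CPM) and, of the fibroblasts, in trophocytes (35.6 and 19.1 CPM). Ephb4, a receptor of venous vessels, led in lymphatic endothelium with 17 and 18 UMIs. Among fibroblasts Ephb4 varied little, with 1.76-fold and 1.85-fold between its highest and lowest class.

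The libraries were then compared within each class. A member was counted as higher or lower in the Cre library at 1.5-fold or more on the scale of log2(CPM + 1), if it had a mean of at least 10 CPM and at least 50 UMIs over both libraries. Over all fibroblasts 32 members were measured: 5 were higher (Sema4a, Sema3d, Slit2, Slit3 and Efna5; 3.88% of 9041 genes were) and 5 lower (Unc5c, Efnb2, Sema3f, Unc5b and Robo1; 3.25% of genes were), with a median log2 ratio of -0.04, beside -0.04 for all genes. Such sums follow the mix of classes, which differed between the libraries: with the 5 classes weighted alike, 0 members were higher and 3 lower. Slit3, for example, was at 506 and 836 CPM over all fibroblasts but at 1021 and 1054 CPM in the Pi16 class. Of the 5 classes it passed 1.5-fold in the subepithelial class alone, at 106 and 160.1 CPM. Within classes the counts were 5 higher and 2 lower of 25 members in the subepithelial class (4.99% and 3.65% of genes), 7 and 4 of 30 in the lamina propria class (5.6% and 3.68%), 3 and 5 of 25 in the Pi16 class (4.7% and 2.73%), 1 and 6 of 27 in trophocytes (4.79% and 2.72%) and 0 and 5 of 25 in Kcnn3 cells (5.67% and 5.01%). In Kcnn3 cells Efna5, at 245 and 368 CPM, was 1.5-fold higher (1.31 to 1.73) on CPM and just under the call on the scale with 1 CPM added, and 1 member was higher with looser cell filters, with doublets kept or with median ratio scaling. Lower calls there numbered 3 with classes taken from clusters and 2 after thinning, in place of 5. The median log2 ratio there was -0.20, beside 0.0041 for all genes. No share of all genes is given for these alternatives or for the equal weighting of classes.

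**Figure D3:**
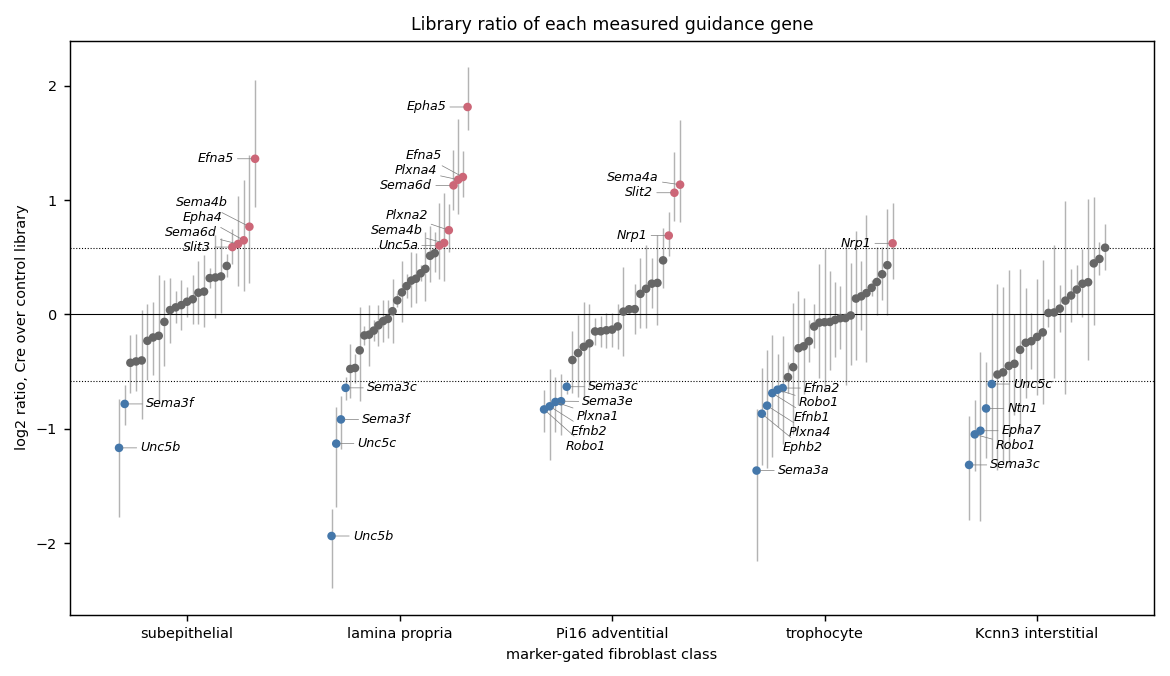
Ratio of Cre over control for every measured member in each fibroblast class, ordered by size, as log2 of (CPM + 1). Grey lines are exact 95% binomial intervals of the ratio of UMIs, dotted lines mark 1.5-fold, and members past them are named in red (higher) and blue (lower). Robo1 and Sema3c are among the blue points of 3 classes each, and Kcnn3 cells hold no red point, with Efna5 just under the line.

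Robo1 was lower in the Cre library in 3 of 5 fibroblast classes and level, meaning within 1.5-fold here and below, in the 2 where it was highest. It was at 75.1 and 41.8 CPM in the Pi16 class, 1.80-fold lower (95% interval 1.58 to 2.04), at 58.7 and 36.9 CPM in trophocytes, 1.59-fold lower (1.27 to 1.98), and at 173 and 82.9 CPM in Kcnn3 cells, 2.08-fold lower (1.68 to 2.58). In the subepithelial class it was at 179.6 and 194 CPM and in the lamina propria class at 226 and 205 CPM. Classes hold different clusters of cells in the libraries, so the same genes were read in 9 clusters of fibroblasts found without the guidance genes and with at least 100 cells in each library. Robo1 was lower in 8 of the 9, in 7 with an interval below 1; the exception was the subepithelial cluster led by Sox6 and Procr, at 182 and 192 CPM. In the cluster led by Cxcl13 and Cxcl9, which held 5.75% of the control and 74.6% of the Cre lamina propria class, it was at 348 and 198 CPM. The cells of that cluster differed between libraries, with medians of 5376.5 and 7478.5 UMIs. Malat1, a nuclear RNA, was at 10085 and 7182 CPM there and Neat1 at 735 and 315 CPM. The part of these differences in the ratios of any member within that cluster was not tested. Of 32 members measured over all fibroblasts, 6 were lower in at least 8 of the 9 clusters (Unc5c, Epha7, Sema3c, Sema3f, Ntn1 and Robo1), beside 10.5% of 9041 genes. Of these 32, Efna5 alone was higher in at least 8, beside 9.21%. Its interval was above 1 in 3 of them and below 1 in the Npy1r and C3 cluster. Sema4b, which was under the level asked for over all fibroblasts, was higher in 8 too, in 3 with an interval above 1. Slit3 was higher in 7 clusters, each with an interval above 1, and lower in 2, each with an interval below 1. The 9 clusters share their libraries and are not replicates.

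Sema3c was lower in all 9 clusters, in 6 with an interval below 1. Of the 32 members measured over all fibroblasts Sema3f was the other one lower in all 9, as were 3.07% of genes. Sema3a, which was measured in trophocytes but was under the level asked for over all fibroblasts, was lower in all 9 too, in 2 with an interval below 1. By class Sema3c was at 667 and 431 CPM in the Pi16 class, 1.55-fold lower (1.49 to 1.61), at 226 and 144 CPM in the lamina propria class, 1.56-fold lower (1.46 to 1.68), and at 91.9 and 36.4 CPM in Kcnn3 cells, 2.53-fold lower (1.85 to 3.46). The Pi16 value went with a change in make-up. The cluster led by Pi16 and Cmah, where Sema3c was level at 735 and 730 CPM, made up 61.7% of the control and 28.5% of the Cre cells of the class, and the cluster led by Myoc and Sfrp4, where it was at 239 and 127 CPM, made up 10.2% and 31.25%. In mesothelium and smooth muscle Sema3c was at 486 and 536 CPM and at 192 and 274 CPM. Nrp1, a receptor for class 3 semaphorins, was higher in the Pi16 class (39.7 and 64.7 CPM), 1.63-fold higher (1.43 to 1.86), and in trophocytes (48.6 and 75.3 CPM), 1.55-fold higher (1.24 to 1.96). It was higher within the Pi16 and Cmah cluster too, at 43.3 and 76.8 CPM, and within the trophocyte cluster led by Npy1r and C3, at 43.4 and 71.7 CPM. In the Cxcl13 and Cxcl9 cluster Nrp1 was within 1.5-fold, at 287 and 207 CPM, with an interval of the ratio below 1. Thinned to 2000 UMIs, 7.87% of control and 12.2% of Cre cells of the Pi16 class had a Nrp1 UMI, against 0% and 2.17% in mesothelium, and 22.2% and 40.9% against 1.61% and 10.9% before thinning, with median depths of 7392 and 10080 UMIs in the class and 10178 and 11544 in mesothelium.

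**Figure D4:**
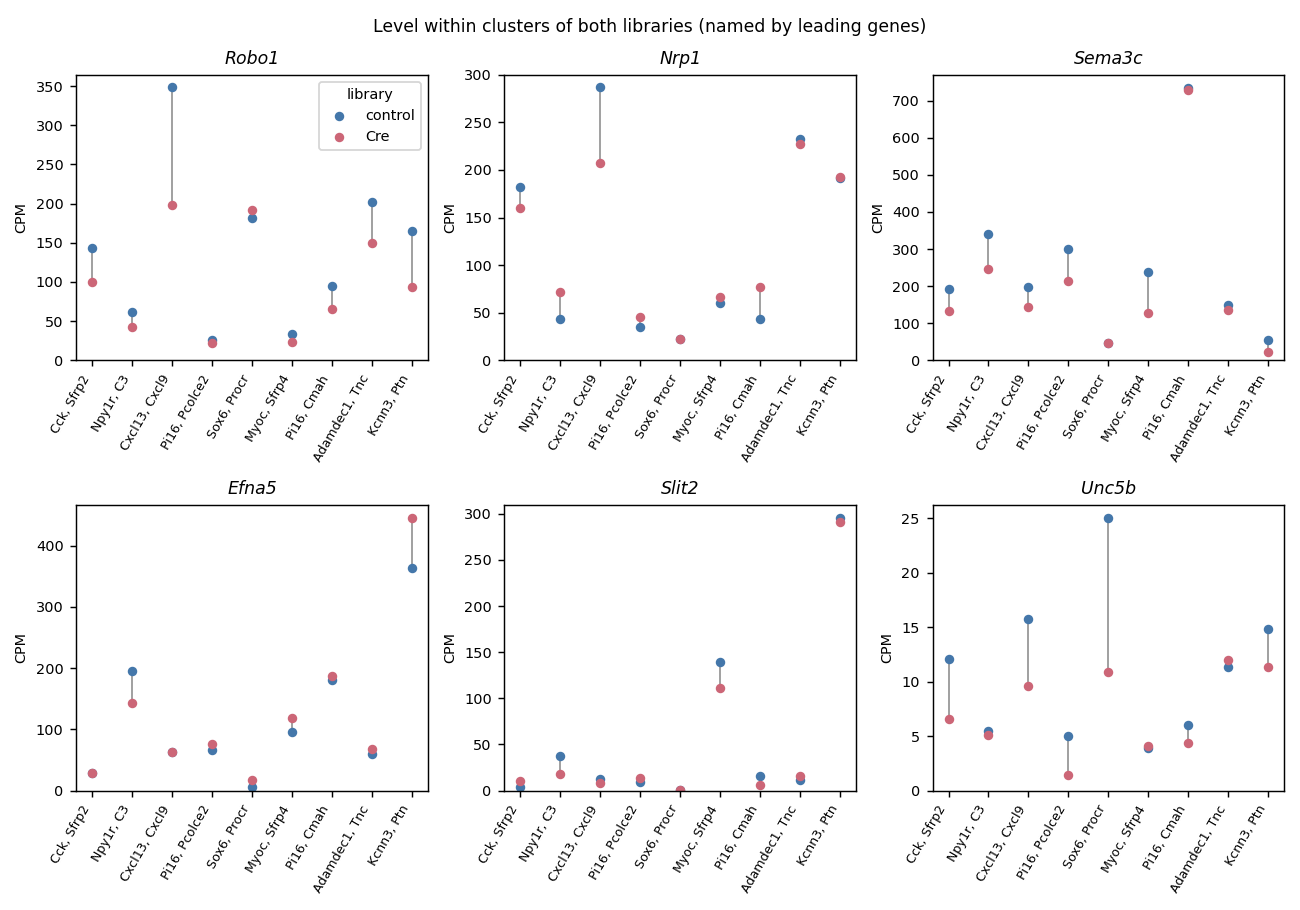
Level of 6 members within the 9 clusters of fibroblasts, each named by its leading genes, with 1 point per library and a line between them. Robo1 and Sema3c are at or below the control point in nearly every cluster, Efna5 is close to level in the Cxcl13 and Cxcl9 cluster, and Slit2 stands out in the Myoc and Kcnn3 clusters of both libraries.

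The regions before the start of Robo1 and Nrp1 are shown because the ratios of these receptors went opposite ways in the same 2 classes, Pi16 and trophocyte. They are the 250 bases before the transcript start, 5' to 3', from the RefSeq table of build GRCm38.p6: Robo1 at chr16:72662899-72663148 and Nrp1 at chr8:128358823-128359072, both on the plus strand. Capitals mark matches to 6 short motifs searched on both strands.
Robo1: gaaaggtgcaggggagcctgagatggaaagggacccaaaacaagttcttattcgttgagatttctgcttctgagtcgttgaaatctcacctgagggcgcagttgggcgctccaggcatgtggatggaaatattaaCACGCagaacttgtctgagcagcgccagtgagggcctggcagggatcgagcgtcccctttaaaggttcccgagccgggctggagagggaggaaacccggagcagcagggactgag
Nrp1: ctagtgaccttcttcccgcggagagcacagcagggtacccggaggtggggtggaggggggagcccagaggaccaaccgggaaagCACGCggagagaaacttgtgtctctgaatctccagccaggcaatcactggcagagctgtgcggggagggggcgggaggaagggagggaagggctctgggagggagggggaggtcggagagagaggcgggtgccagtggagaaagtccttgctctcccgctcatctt
Each held 1 match, to GCGTG (the core of aryl hydrocarbon receptor sites, here as its reverse complement), which 28.2% of 32851 promoters of the same length and 26 of the 75 matched to 59 of the members held. The core of the interferon-stimulated element, GAAA followed by any 2 bases and GAAA again, was in 2 of those 75 (Plxnc1 and Sema6b), beside 2.98% of all promoters, and the gamma-activated site TTCNNNGAA in 2 (Efna3 and Epha3), beside 7.02%. AP-1 sites (TGACTCA), E-boxes (CACGTG) and TATA boxes (TATAAA) were in 2, 4 and 2 of the 75, beside 4.46%, 6.02% and 12.4%. These are matches of letters and not sites of binding.

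In the lamina propria class the largest ratios went with a near exchange of clusters. Control cells of the class came from the clusters led by Cck and Sfrp2 (28.8%), by Stmn2 and Hapln1 (31.3%) and by Cd36 and Nrg1 (19.4%), which held 2.21%, 1.1% and 0.276% of the Cre cells, while the Cxcl13 and Cxcl9 cluster held 74.6%. Epha5, an Eph receptor best known from neurons, was at 14.1 and 51.9 CPM, 3.69-fold higher (3.06 to 4.48). Efna5, a ligand it binds, was at 29.6 and 69.3 CPM, 2.34-fold higher (2.04 to 2.70). Within the Cxcl13 and Cxcl9 cluster, however, Epha5 was at 49.2 and 42.7 CPM and Efna5 at 62.3 and 63.5 CPM, and in the Cck and Sfrp2 cluster Epha5 was at 9.46 and 36.6 CPM and Efna5 at 29.02 and 29.1 CPM. Cells of the Cxcl13 and Cxcl9 cluster differed in depth and Malat1 between the libraries, as given above. With the clusters of the class weighted alike, 1 member was higher and 10 lower in place of 7 and 4. The log2 ratios of Epha5 and Efna5 were then -0.41 and -0.14. No share of all genes is given for that weighting, so the counts are not read against other genes. That weighting asked for at least 30 cells of the class in a cluster. In both libraries only the Cxcl13 and Cxcl9 cluster (72 and 811 cells) and the Adamdec1 and Tnc cluster (178 and 230) held that many. The Cck and Sfrp2, Stmn2 and Hapln1 and Cd36 and Nrg1 clusters held 360, 392 and 243 control cells. Their Cre cells numbered 24, 12 and 3. The direction of Epha5 and Efna5 differed with the weighting and its minimum of cells, and the cause was not tested. Plxna2, Plxna4, Sema6d, Sema4b and Unc5a were also higher in the class, Sema6d at 17.8 and 40.2 CPM. Within the Cxcl13 and Cxcl9 cluster Sema6d was at 22.8 and 34.2 CPM, just under 1.5-fold, and Plxna2 was level at 52.7 and 44.7 CPM.

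Receptors and ligands lower in the lamina propria class were Unc5b, Unc5c, Sema3f and Sema3c. Unc5b was at 39.95 and 9.71 CPM, 4.12-fold lower (3.26 to 5.26), yet at 15.8 and 9.58 CPM in the Cxcl13 and Cxcl9 cluster and 12.1 and 6.57 CPM in the Cck and Sfrp2 cluster, ratios with intervals that include 1. Unc5c was at 16.5 and 7.00 CPM, and it stayed lower within the Cxcl13 and Cxcl9 cluster, at 35.1 and 6.52 CPM. Sema3f was at 48.2 and 25.1 CPM in the class but level within clusters, at 23.7 and 19.8 CPM in the Cxcl13 and Cxcl9, 47.0 and 45.1 CPM in the Adamdec1 and Tnc and 20.9 and 16.9 CPM in the Cck and Sfrp2 cluster.

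Subepithelial fibroblasts, of which 1 cluster held 91.7% of control and 95.1% of Cre cells, had lower Unc5b and Sema3f and higher Efna5 in the Cre library. Unc5b was at 26.2 and 11.1 CPM, 2.35-fold lower (1.66 to 3.41), and Sema3f at 167 and 96.5 CPM, 1.73-fold lower (1.53 to 1.95); in the Sox6 and Procr cluster they were at 25.1 and 10.9 CPM and 175 and 96.9 CPM. Efna5 was at 6.24 and 17.6 CPM, 2.82-fold higher (1.92 to 4.15), and at 5.43 and 17.1 CPM in the cluster, but 3 cells held 19 of its 60 UMIs in the Cre library. Slit3 was at 106 and 160.1 CPM, 1.51-fold higher (1.35 to 1.68). Epha4, Sema4b and Sema6d were higher from levels of 10.9, 7.86 and 16.9 CPM. Efnb2, the ligand this class led for, was level at 167 and 174 CPM. The 6 genes fixed as signs of handling (such as Fos and Jun) summed to 18319.9 and 12163 CPM in this class, and their part was not tested.

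In the Pi16 class the further members past 1.5-fold were Sema4a and Slit2, higher, and Sema3e, Plxna1 and Efnb2, lower. Slit2 was at 14.6 and 31.6 CPM, 2.16-fold higher (1.76 to 2.68), while the Myoc and Sfrp4 cluster, whose share of the class was larger in the Cre library, had 139 and 111 CPM and the Pi16 and Cmah cluster 16.1 and 5.62 CPM. Sema4a was at 6.66 and 15.8 CPM, 2.37-fold higher (1.75 to 3.25), but past 1.5-fold in none of the 4 clusters that held most of the class: 9.69 and 13.1 CPM in the Pi16 and Cmah, 11.9 and 15.9 CPM in the Pi16 and Pcolce2, 25.6 and 37.4 CPM in the Npy1r and C3 and 33.1 and 25.7 CPM in the Myoc and Sfrp4 cluster. Plxna1, a semaphorin receptor, was at 43.8 and 25.4 CPM, 1.73-fold lower (1.46 to 2.04), yet level in the Pi16 and Cmah cluster at 48.6 and 39.97 CPM and in the Pi16 and Pcolce2 cluster at 14.4 and 16.2 CPM. Efnb2 was level in the Pi16 and Cmah cluster as well, at 19.3 and 16.5 CPM. Sema3e was at 35.3 and 20.5 CPM in the class and stayed lower in the Pi16 and Cmah cluster, at 35.9 and 20.9 CPM. With the clusters of the class weighted alike, 1 member was higher and 2 were lower in place of 3 and 5. No share of all genes is given for that weighting.

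Trophocytes, with 300 control and 1226 Cre cells, had 6 members lower: Sema3a at 16.9 and 5.97 CPM, Ephb2 at 35.6 and 19.1 CPM, Plxna4, Efna2, Efnb1 and Robo1. Part of this rests on few cells: in the control 3 cells held 9 of the 30 Sema3a UMIs and 16 of the 50 Efna2 UMIs. Without the 3 richest cells of each library Efna2 was at 19.5 and 16.9 CPM and no longer past 1.5-fold, and Sema3a at 11.97 and 5.04 CPM. In the Npy1r and C3 cluster, which held 51.3% of the control and 72.7% of the Cre cells of the class, Ephb2 was at 36.2 and 17.5 CPM and Plxna4 at 41.3 and 14.9 CPM, and Efna2 and Efnb1 were level at 24.2 and 16.7 CPM and 17.4 and 12.4 CPM. Slit3, whose level was highest in this class, was at 1077 and 1266 CPM.

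In Kcnn3 interstitial cells the 5 lower members were Sema3c, Robo1, Epha7, Ntn1 and Unc5c. Ntn1 was at 86.7 and 48.6 CPM, 1.78-fold lower (1.33 to 2.39). Epha7 was at 32.1 and 15.4 CPM, and 3 cells held 18 of its 37 control UMIs. Without the 3 richest cells of each library it was at 16.96 and 11.9 CPM and no longer past 1.5-fold. With clusters weighted alike its log2 ratio turned to 0.68. That weighting asked for at least 30 cells of the class in a cluster, which in both libraries only the cluster led by Kcnn3 and Ptn held (84 and 170 cells). Unc5c was at 36.4 and 23.6 CPM with an interval of the fold that includes 1. The cluster led by Kcnn3 and Ptn held 55.3% of the control and 74.6% of the Cre cells of the class, and 16.4% of the control cells and none of the Cre cells came from the Cck and Sfrp2 cluster. Within the Kcnn3 and Ptn cluster Ntn1 was level at 41.4 and 39.8 CPM, Unc5c at 35.5 and 31.7 CPM and Epha7 at 15.8 and 14.04 CPM. Robo1 and Sema3c stayed lower there, at 165 and 93.7 CPM and 54.3 and 23.5 CPM. Of the 6 members highest of the fibroblasts in this class in both libraries, Slit2 (209 and 235 CPM), Epha3 (122 and 147 CPM) and Sema5a (276 and 286 CPM) had intervals of the ratio that include 1, as did Epha4 (34.7 and 47.6 CPM). Robo2 (492 and 689 CPM) and Efna5 (245 and 368 CPM) had intervals above 1.

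Outside the fibroblasts, smooth muscle had 5 members higher (Plxna2, Slit2, Plxna4, Slit3 and Efna5) and 2 lower (Sema3d and Unc5b) of 28 (7.56% and 6.38% of genes). Slit3 was at 109 and 230.1 CPM, but in the Cre library 3 of 153 cells held 165 of 275 UMIs, and without the 3 richest cells of each library it was level at 96.9 and 96.9 CPM. All 23 Slit2 UMIs of the Cre library came from 2 cells, and 3 cells held 29 of 42 Efna5 UMIs. With classes taken from clusters the log2 ratio of Slit2 turned to -1.49. Sema3d was at 23.4 and 10.9 CPM, 2.15-fold lower (1.21 to 4.18), and Unc5b at 16.1 and 9.20 CPM, a ratio whose interval includes 1 and whose log2 turned to 0.24 after thinning. The 7 lamina propria markers summed to 696 and 1335 CPM in smooth muscle, and the 6 handling genes to 18487 and 12849 CPM. Their part in these ratios was not tested. Plxna4, a plexin for class 3 semaphorins, was at 9.88 and 41.8 CPM, 4.23-fold higher (2.76 to 6.52), and at 7.87 and 27.5 CPM without the 3 richest cells. Unc5c and Sema3a, the members highest here, were level at 273 and 244 CPM and 283 and 252 CPM.

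Glia had 1 of 12 members higher and 0 lower (9.3% and 5.35% of genes). This was Ntn4, at 16.1 and 85.3 CPM: 5 UMIs in 4 of 66 control cells and 52 UMIs in 34 of 112 Cre cells, 5.29-fold higher (2.13 to 16.98). The glial semaphorins were level, Sema3b at 519 and 545 CPM and Sema3e at 264 and 304 CPM. The 7 Pi16 class markers, a class high in Ntn4, summed to 258 and 266 CPM in glia, and the 9 leukocyte markers to 41.9 and 300.3 CPM. Cajal cells had 0 higher and 2 lower of 13 (6.88% and 8.34% of genes), at 126 and 76.8 CPM for Robo1 and 220.4 and 127 CPM for Robo2. The leukocyte markers there summed to 61.4 and 1202 CPM, with 7 and 2 of the 9 at 0 UMIs. Mesothelium had 2 higher (Sema4c and Slit3) and 2 lower (Sema3d and Efnb1) of 14 (9.22% and 7.27% of genes), with Sema3d at 103 and 45.1 CPM. In lymphatic endothelium, with 6 members measured, Efna1 was higher (239 and 388 CPM; 14.1% of genes were) and Slit3 lower (327 and 45.1 CPM; 13.8% were). Of 48 control Slit3 UMIs there, 3 cells held 33, and the 8 general fibroblast markers summed to 6629 and 3066 CPM. The 8 lymphatic markers themselves summed to 19899.8 and 40216 CPM and the 6 blood endothelial markers to 1200.3 and 2200.2 CPM. The 6 handling genes summed to 9684 and 6114 CPM in lymphatic endothelium. The 9 leukocyte markers summed to 43.6 and 445 CPM in mesothelium and to 6.82 and 496 CPM in lymphatic endothelium. The part of these markers in the ratios of glia, Cajal cells, mesothelium and lymphatic endothelium was not tested.

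A list of 63 other genes of the pathway, holding further receptors, cytoplasmic adaptors and regulators of the cytoskeleton, was read beside the members. Over all fibroblasts 43 were measured, 4 higher and 3 lower in the Cre library, beside 3.88% and 3.25% of all genes, with a median log2 ratio of -0.089. Chl1, an adhesion molecule that associates with semaphorin receptors, was at 9.25 and 79.02 CPM, and Rgma, a ligand of neogenin, at 22.97 and 40.4 CPM; Flrt2 and Plxdc2 were the other 2. Plxdc1, a transmembrane protein with a plexin-like domain, was at 20.9 and 5.95 CPM and Gpc1, a glypican that binds Slits, at 45.3 and 20.02 CPM; Enah was the third. Chl1 was among the leading genes of the Cxcl13 and Cxcl9 cluster, which held 202 control and 1950 Cre cells. Within classes Chl1 was at 15.2 and 203 CPM in the lamina propria and 7.75 and 53.4 CPM in the subepithelial class. Trophocytes had 8.47 and 34.6 CPM of Chl1. In the Pi16 class (1.29 and 11.8 CPM) and in Kcnn3 cells (4.34 and 8.19 CPM) it was under the level asked for. The most abundant, Rhoa and Cfl1, which act on actin downstream of many guidance receptors, were at 579 and 510.3 CPM and 506 and 420.2 CPM. Within classes the list had 4 higher and 1 lower of 36 in the subepithelial class (4.99% and 3.65% of all genes), 3 and 4 of 41 in the lamina propria class (5.6% and 3.68%), 2 and 3 of 35 in the Pi16 class (4.7% and 2.73%), 3 and 1 of 40 in trophocytes (4.79% and 2.72%) and 1 and 1 of 38 in Kcnn3 cells (5.67% and 5.01%).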

How the data were processed

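Deposited values were raw counts of unique molecules (UMIs) per gene and cell barcode, made by the authors with Cell Ranger 8.0.1 on GRCm39, per the submitters' processing notes; 0 sample columns were left unused. Counts were read in Python 3.11.15. Cells with under 500 genes or over 10% mitochondrial UMIs were dropped, and doublets called by Scrublet (8% expected) in each library were removed, 393 and 111 cells. Cells with at least 5 of 8 smooth muscle markers, or 3 markers of another class, left the fibroblasts, which needed 5 of 8 general markers; a fibroblast class needed a score of 0.5 and a margin of 0.25 over the next (Kcnn3 cells a score of 1 and a Kcnn3 UMI). These thresholds were set after the data were seen. Clusters (19, scanpy 1.11.5, leidenalg 0.10.2) were found on 2000 variable genes without the members. UMIs were summed per class and library. Intervals were exact Poisson for levels and exact binomial for ratios (scipy 1.17.1); UMIs of 1 cell are not independent, so these are too narrow. The calls and intervals were checked on simulated counts. Total depth was 76570611 and 66845139 UMIs, with medians of 6505 and 7332 per barcode. Levels were compared within a gene only.

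The members and lists were chosen with earlier results of these data known. Genes named by rule were the most abundant member of each family, members past 2-fold between libraries at 20 CPM or more, members leading 2-fold in the same class of both libraries, and of the pathway list the 2 highest, 2 lowest and 2 most abundant. Other members were named after their values were seen. Promoters came from a RefSeq table of another build than the counts, so no coordinate was joined to them.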

Additional observations from a re-analysis of the deposited data

Results flagged for a closer look

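The ratio of 2 members went opposite ways in different classes; neither difference was tested, since each class has 1 library per genotype. For Plxna4 the log2 ratio of Cre over control was 1.98 in smooth muscle, from 9.88 to 41.8 CPM, and -0.80 in trophocyte fibroblasts, from 24.3 to 13.6 CPM. For Slit3 it was 1.07 in smooth muscle, from 109 to 230.1 CPM, and -2.83 in lymphatic endothelium, from 327 to 45.1 CPM. Both Slit3 values rest on few cells: 3 cells held 165 of the 275 UMIs in smooth muscle of the Cre library and 33 of the 48 in lymphatic endothelium of the control.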

How the results depend on the processing

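Over all alternatives, 120 recomputed counts of members stayed within 1.5 times the count reported and 48 did not. No share of all genes is given for the alternatives, here or above, so their counts are not read against other genes. Of the recomputed ratios of single members, 1041 stayed within their counting interval, 188 moved by more and 9 that had been past 1.5-fold changed sign. Under 10 added CPM, subepithelial higher calls numbered 1, Pi16 lower calls 3, trophocyte higher calls 0 and lower calls 2, and smooth muscle lower calls 1. With cells of 200 genes and up to 20% mitochondrial UMIs admitted, with doublets kept and with median ratio scaling, Kcnn3 higher calls were 1, and in the latter pair subepithelial higher calls were 3. Asking for 50 UMIs alone gave 9 higher over all fibroblasts, 11 higher and 7 lower in the lamina propria class, 8 lower in the Pi16 class and 3 higher in trophocytes. A mean of 50 CPM gave 2 higher and 1 lower over all fibroblasts, 1 and 1 in the subepithelial, 0 and 1 in the lamina propria and 1 and 2 in the Pi16 class, 0 lower in trophocytes, 3 lower in Kcnn3 cells and 1 and 0 in smooth muscle. Classes taken from clusters gave 3 lower in Kcnn3 cells and 2 higher in smooth muscle, and stricter gates gave 3 higher in the subepithelial and 3 in the trophocyte class. Thinning to 2000 UMIs, which leaves fewer members measured, gave 1 higher and 4 lower in the subepithelial class, 0 higher in trophocytes, 2 lower in Kcnn3 cells, 0 higher and 1 lower in smooth muscle, 16 members with the same leading class and 9 leading by 2-fold.

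With fibroblast classes weighted alike, 0 members were higher and 3 lower over all fibroblasts, and Sema3d had a log2 ratio of -0.0837. Another 2 alternatives were chosen after seeing the data. Weighting clusters alike asked for at least 30 cells of the class in a cluster. It gave 0 higher and 2 lower over all fibroblasts and 3 higher in the subepithelial class. The lamina propria class had 1 higher and 10 lower, and the Pi16 class 1 higher and 2 lower. In the lamina propria class only the Cxcl13 and Cxcl9 and the Adamdec1 and Tnc clusters held 30 such cells in both libraries. The log2 ratios of Efna5 and Sema3d over all fibroblasts were then -0.0799 and -0.0639, of Efna5 and Epha5 in the lamina propria class -0.14 and -0.41, of Epha7 in Kcnn3 cells 0.68 and of Slit2 in smooth muscle -1.44. Slit2 there was -1.49 with classes from clusters, and Unc5b 0.24 after thinning. Leaving out barcodes found in both libraries moved no count by over 1.5 times. The cause of these changes was not tested beyond what each alternative removes. No scaling moved the median of all genes by over 0.1 on the log2 scale. No paired analysis was possible because each genotype has 1 library. Intervals cover counting error only, and differences between mice were not measured.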

Other observations

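A cluster led by Adamtsl1, Ebf1 and Neat1, with 117 control and 83 Cre cells, had the highest Slit3 of the 19 clusters, at 4638 and 4399 CPM, with 953 and 823 CPM of Efna5 and 483 and 166 CPM of Robo1. Its cells had medians of 3443 and 4193 UMIs, and Malat1, a nuclear RNA, was at 24654 and 27566 CPM there.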
